A study of Mus musculus with 17 samples.

Results

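Both homozygous *Klf3* mutants lay on the same side of WT on 211 of the 39137 probe sets measured in whole mouse embryos at E12.5. A probe set is the group of array probes that reads 1 transcript or part of 1. It was kept where all 7 homozygous embryos, 3 H275R/H275R and 4 CH/CH, were below or above all 4 WT embryos. Of the 211, 120 were lower and 91 were higher in the mutants. They were chosen on these values, so the comparison of homozygotes with WT describes them and does not test them. *Hsd3b6*, an enzyme of steroid hormone synthesis, led the lower ones. *Egln3*, *Vegfa*, *Pdk1*, *P4ha1* and *Pgk1*, genes that cells raise when oxygen is short, were among the higher ones. They are 5 of 16 measured genes on a list of this kind. The rest of the list overlapped with WT, and 2 of the 16 were below WT on average. Only 1 of the 16, *Egln3*, passed when tested over all probe sets.

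The groups were 3 embryos homozygous for *Klf3* H275R, 4 homozygous for CH, 4 heterozygous for H275R, 2 heterozygous for CH and 4 WT, with 1 Affymetrix 2.0 ST array each. H275R replaces a histidine with arginine in a zinc finger, arose by chemical (ENU) mutagenesis and was kept largely on a C57BL/6J background. CH is a gene trap in intron 1 of *Klf3*, from 1 embryonic stem cell clone, on a mixed C57BL/6 and 129 background, so the allele and the background of the line cannot be told apart. The line and background of the 4 WT embryos are not given in the labels or methods, so a difference of background from WT cannot be told apart from the mutation. Values are log2 expression after robust multiarray averaging, and differences are mutant minus WT in log2 units. The labels give no litter, so the p-values measure only the spread between these embryos.

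KLF3 belongs to the Krüppel-like factors, whose zinc fingers bind CACCC boxes in promoters and enhancers. It is mainly a repressor that recruits the corepressor CtBP, and its zinc fingers contact the DNA. In mouse it is known for roles in red cells, B cells and fat. *Hsd3b6* is 1 of a cluster of mouse 3-beta-hydroxysteroid dehydrogenase genes, some of which convert pregnenolone to progesterone, and is known from the early placenta and the adrenal gland.

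The promoters of *Hsd3b6*, of *Xk* and of *Lgals3* are shown because these genes carry the clearest changes or, for *Lgals3*, were named as a KLF3 target by the study. Each covers 300 bases around the start of transcription, most of them before it (RefSeq, GRCm38.p6), and capitals mark CACCC or its complement GGGTG.
Hsd3b6: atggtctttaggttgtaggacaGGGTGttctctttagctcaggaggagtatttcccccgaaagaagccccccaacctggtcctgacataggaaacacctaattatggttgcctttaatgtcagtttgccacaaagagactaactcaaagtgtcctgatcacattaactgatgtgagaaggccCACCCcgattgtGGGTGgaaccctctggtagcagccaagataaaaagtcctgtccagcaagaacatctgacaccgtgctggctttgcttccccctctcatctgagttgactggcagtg
Xk: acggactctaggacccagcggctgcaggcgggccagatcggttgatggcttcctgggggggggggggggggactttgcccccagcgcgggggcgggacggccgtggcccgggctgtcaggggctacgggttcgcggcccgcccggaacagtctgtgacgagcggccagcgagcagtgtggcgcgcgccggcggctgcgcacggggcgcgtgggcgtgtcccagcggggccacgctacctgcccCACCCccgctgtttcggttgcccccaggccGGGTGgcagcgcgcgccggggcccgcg
Lgals3: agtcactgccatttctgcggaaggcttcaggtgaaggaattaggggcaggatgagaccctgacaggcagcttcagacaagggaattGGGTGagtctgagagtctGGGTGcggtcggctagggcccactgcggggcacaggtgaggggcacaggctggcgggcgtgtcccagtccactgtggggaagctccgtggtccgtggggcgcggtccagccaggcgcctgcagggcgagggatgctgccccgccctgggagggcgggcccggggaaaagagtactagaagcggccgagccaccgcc
The *Hsd3b6* promoter lies on the minus strand at chr3:98814394-98814693 and holds 3 matches to CACCC on either strand. That of *Xk* is on the plus strand at chrX:9272534-9272833 and that of *Lgals3* on the plus strand at chr14:47373610-47373909, with 2 matches each. CACCC is common. It occurred in 60.0% of the 20520 promoters of measured genes, in 54.7% of the 53 promoters found for kept genes that were lower and in 70.8% of the 72 found for those that were higher. The longer box CCACACCC was in 3.68% of all promoters, in 0 of the 53 lower and in 4 of the 72 higher. These matches describe the letters and are not binding sites.

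As a second set, the promoters of *Egln3* and *Pgk1* are shown, with capitals on ACGTG or its complement CACGT. The core that hypoxia-inducible factors bind has 2 forms, of which ACGTG is one and GCGTG the other.
Egln3: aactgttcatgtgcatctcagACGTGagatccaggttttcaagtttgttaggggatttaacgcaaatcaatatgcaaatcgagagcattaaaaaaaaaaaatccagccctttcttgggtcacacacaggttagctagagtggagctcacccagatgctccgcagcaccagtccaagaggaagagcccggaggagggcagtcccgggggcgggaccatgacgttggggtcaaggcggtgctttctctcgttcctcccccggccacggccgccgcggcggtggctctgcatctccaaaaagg
Pgk1: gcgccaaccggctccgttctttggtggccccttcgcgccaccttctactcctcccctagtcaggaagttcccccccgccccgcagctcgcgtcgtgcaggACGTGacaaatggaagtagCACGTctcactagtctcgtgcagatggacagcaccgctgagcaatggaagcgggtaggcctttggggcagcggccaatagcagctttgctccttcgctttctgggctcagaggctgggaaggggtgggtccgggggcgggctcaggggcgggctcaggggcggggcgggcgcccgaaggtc
*Egln3* lies on the minus strand at chr12:54203825-54204124 with 1 match, and *Pgk1* on the plus strand at chrX:106186850-106187149 with 2. The promoter of *P4ha1* and 1 of the 2 of *Vegfa* held 1 match each, and both promoters of *Pdk1* held 0. GCGTG had 2 matches in 1 of the *Pdk1* promoters, 2 in *P4ha1*, 1 in the same *Vegfa* promoter and 0 in *Egln3* and *Pgk1*. ACGTG occurred in 21.4% of all promoters, in 24.5% of the lower and 27.8% of the higher kept genes' promoters, and in 13 of the 22 (59.1%) found for the list of hypoxia genes used below. GCGTG occurred in 39.0% of all promoters, in 34.0% of the lower and 58.3% of the higher kept genes' promoters, and in 54.5% of those of the hypoxia list.

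*Klf3* itself was not among the 211. Its transcript read 9.65, 9.33 and 9.38 in H275R homozygotes and 5.27, 5.62, 5.73 and 6.13 in CH homozygotes, against 9.80, 9.48, 9.61 and 9.55 in WT. The gene trap embryos lay far below WT, and the H275R embryos overlapped with it. H275R homozygotes differed from WT by -0.15 ± 0.16 (SE, limma adjusted p = 0.999) and CH homozygotes by -3.92 ± 0.14 (SE, adjusted p = 5.18e-09). CH homozygotes differed from H275R homozygotes by -3.77 ± 0.16 (SE, adjusted p = 2.61e-08). The kept probe sets are thus shared by a mutant with its *Klf3* transcript present and one in which it was low.

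The 120 lower probe sets were 0.307% of the table, the 91 higher ones 0.233% and all 211 together 0.539%. H275R homozygotes alone did not overlap with WT on 2272 probe sets (5.81%) and CH homozygotes alone on 1605 (4.1%). The 211 were 9.29% of the first list and 13.1% of the second, and both lists share the WT arrays. No overlap by itself was not taken as a sign of change. The gap between the nearest mutant and the nearest WT array had a median of 0.03, and only 28 probe sets, 21 lower and 7 higher, had a gap of at least 0.1. Just inside the rule were *Kif2b* and *Arf6*, lower with gaps of 0.00019 and 0.00344, and *Zfas1* and *Add3*, higher with gaps of 0.00022 and 0.00043. Just outside it, *Gm14169*, *Acp4*, *Cd151* and *Klhl15* had a mutant and a WT array with the same value.

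Membership also moved with the scaling of the arrays. After a further quantile normalization 142 of the 211 were still kept, after median centring 144, and after both 129, of which 60 were lower and 69 higher. The split by direction was not stable either. Of 217 kept after the quantile normalization 85 were lower and 132 higher, and of 235 kept after median centring 68 were lower and 167 higher, where the deposited values gave 120 and 91. Those kept in all 3 had a median gap of 0.05, and the other 82 a median gap of 0.01 with none above 0.06. Among the genes named here, *Mir1948*, *Mir133a-1*, *Kcne3*, *S100a6*, *S100a2*, *Clec4g*, *Kif2b*, *Arf6*, *Chrna2*, *Cipc*, *Add3* and *Acer2* lost their place under both scalings. *Gm13283*, *Slc52a3* and *Sptlc2* lost it under the quantile normalization, and *AU021092*, *Kcnj1*, *Ngb*, *Mir1964* and *Zfas1* under median centring.

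Tested over all 39137 probe sets with limma, the mean of both homozygous groups differed from WT on 9 probe sets (0.023%) at an adjusted p under 0.1, of which 7 were lower and 2 higher. Without adjustment, 1907 (4.87%) were under 0.05. After adjustment, 1 passed by the methods' t-test. Of the 9, 7 were among the 211, which the rule had selected on the same arrays. They were *Hsd3b6*, *Xk*, *Egln3* and 4 probe sets that the platform annotation does not list. The remaining 2 were *Klf3* and *Hydin*, a gene of motile cilia, and on both of these the H275R homozygotes overlapped with WT. The 9 became 3 without WT 1, 5 without WT 4 and 22 without CH homozygote 4.

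**Figure D1:**
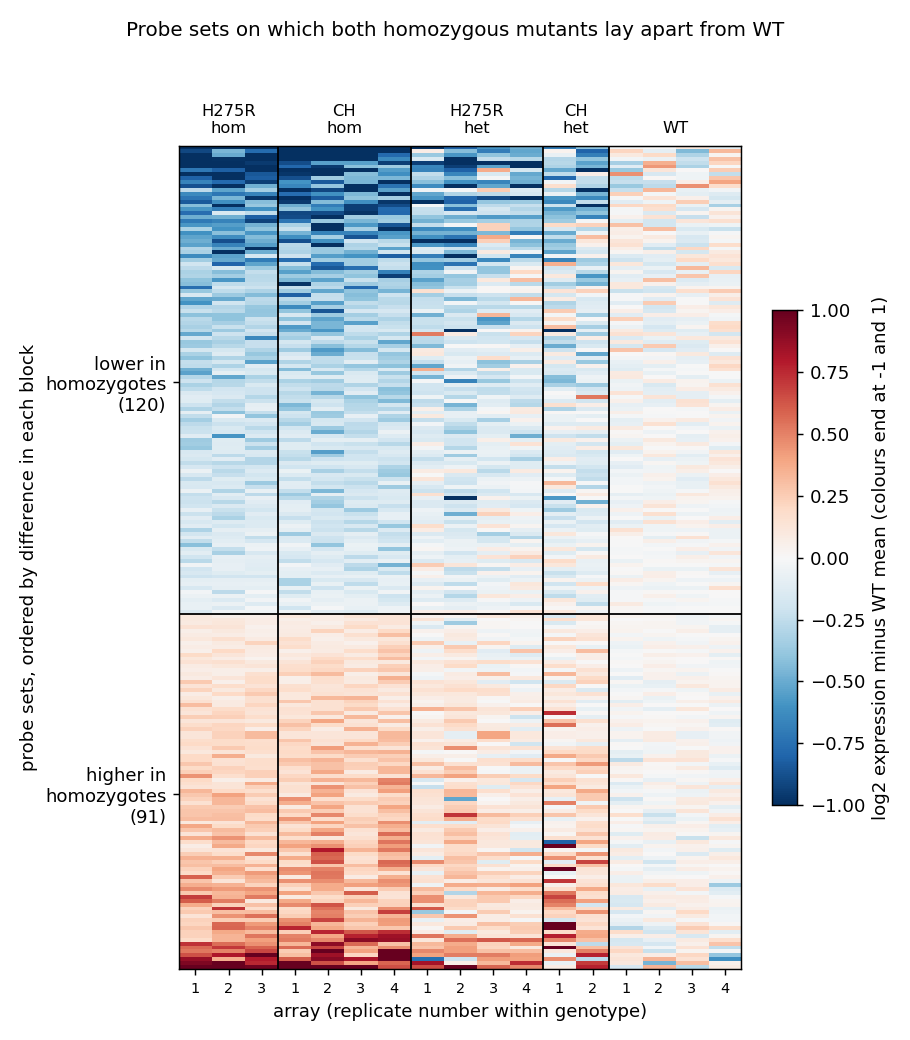
Log2 expression minus the WT mean (colour, ending at -1 and 1) of the 211 kept probe sets (rows, ordered by difference within each block) on the 17 arrays (columns, by genotype and replicate number). The 120 lower and 91 higher probe sets are blue and red in all 7 homozygotes by the rule, and the heterozygous columns, which the rule did not use, are paler in most rows, with CH heterozygote 1 strongly coloured in some of the higher ones.

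Before the single genes, the arrays themselves need a few values. The median log2 value was 6.68 to 6.78 over the 17 arrays, and pairs of arrays correlated at 0.981 to 0.994 across probe sets. CH homozygotes 2 and 4 stood apart from 1 and 3. Averaged over 19 hepatocyte genes, CH homozygotes 2 and 4 stood at 9.38 and 9.33 and CH homozygotes 1 and 3 at 8.24 and 8.17, against 8.28 to 8.74 in WT, and CH heterozygotes 1 and 2 divided in the same way, with 8.0 and 9.37. On the first principal component (19.4% of the variance) WT 4, at 20.1, lay among the CH arrays, and whether it belongs to the CH line is not stated. The Y-linked gene *Kdm5d* was high in H275R homozygote 1, CH homozygote 3, CH heterozygote 1 and WT 2, so that every group used by the rule held both sexes. Markers of neurons, at list means of 9.61 to 9.84, of cardiac muscle, at 8.49 to 8.96, and of cartilage, at 7.73 to 8.87 were above the median level of all probe sets (6.72) on every array. That median includes dim and unlisted probe sets, so this does not measure tissue content.

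*Hsd3b6* had the largest separation of all. It read 9.10, 9.97 and 9.89 in H275R homozygotes and 8.69, 9.21, 9.55 and 8.83 in CH homozygotes, against 11.18, 11.20, 11.31 and 11.10 in WT. The highest homozygote lay 1.12 log2 units below the lowest WT embryo. The difference was -1.54 in H275R and -2.13 in CH homozygotes, and the combined difference was -1.84 ± 0.18 (SE, limma adjusted p = 0.0014), or 0.280 of the WT level. Heterozygotes stood between, at 10.19, 10.39, 10.61 and 10.71 for H275R and 10.51 and 10.80 for CH. No heterozygote overlapped with a homozygote or with WT. This corresponds to 46.9% of the homozygous difference in H275R and 25.6% in CH heterozygotes. Neither heterozygous difference, -0.72 ± 0.20 and -0.55 ± 0.25 (SE), passed (adjusted p = 1.0 and 0.831), and CH homozygotes did not pass against H275R homozygotes (-0.58 ± 0.22, SE, adjusted p = 0.296). *Hsd3b6* passed under 26 of 27 alternative settings, with 15 of 15 when each array was left out, and missed under the methods' t-test (adjusted p = 0.893). All settings reuse arrays on which it was chosen, so they describe how steady the call is.

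The family was read on the same arrays. Of 6 measured Hsd3b genes, *Hsd3b6* alone was kept. *Hsd3b1*, *Hsd3b2*, *Hsd3b3*, *Hsd3b5* and *Hsd3b7* had combined differences of 0.17, -0.13, 0.03, -0.09 and 0.18, none of which passed. In WT, *Hsd3b6* was also read at a far higher log2 value on its probe set (11.20) than *Hsd3b5* on its own (3.40), though values of different probe sets are not comparable as transcript levels. Of 14 measured genes of steroid synthesis outside this family, 0 were kept, with 7 below and 7 above 0 and a median of -0.00. The rule kept 0.539% of all probe sets, so 0 kept on a short list says little.

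**Figure D2:**
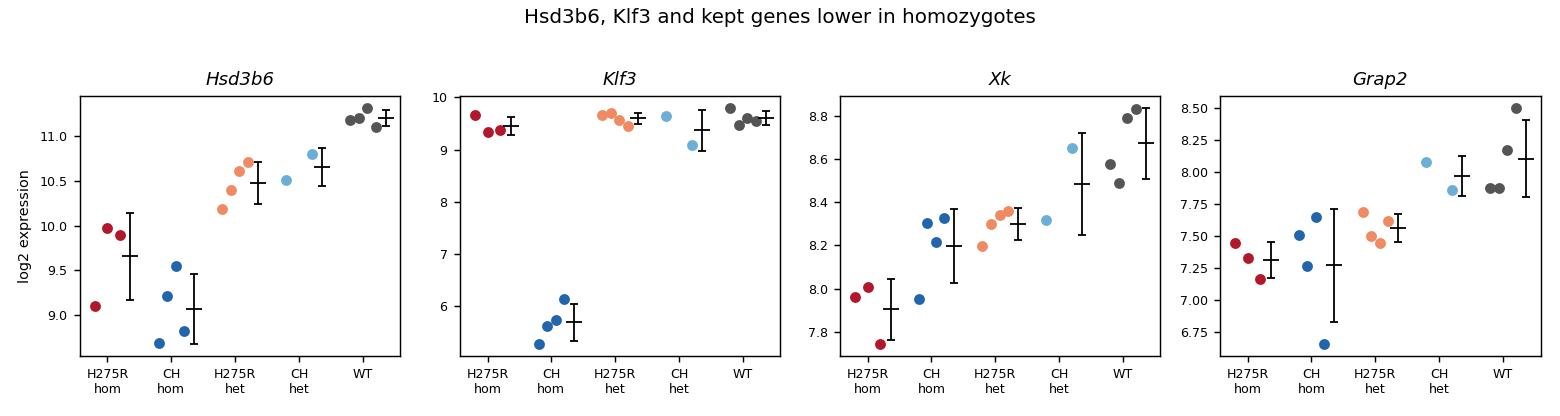
Log2 expression of *Hsd3b6*, *Klf3*, *Xk* and *Grap2* on each array (points), with the mean and SD of each genotype (bars), from H275R homozygotes on the left to WT on the right. *Hsd3b6* is at 8.69 to 9.97 in homozygotes of both alleles, against 11.10 to 11.31 in WT, whereas *Klf3* is low in CH homozygotes only.

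Among kept genes with 1 symbol, the 5 whose pattern over the 17 arrays was most like that of *Hsd3b6* were *Keg1* (Pearson's r = 0.773), *Ftl1-ps2* (0.750), *Grap2* (0.735), *Kcnj1* (0.731) and *Gm16958* (0.726). These values describe arrays that share genotypes and the choice of members. *Grap2*, an adaptor protein of T cell and platelet signalling, read 7.45, 7.33 and 7.17 in H275R and 7.51, 7.27, 7.65 and 6.66 in CH homozygotes, against 7.88, 7.88, 8.17 and 8.50 in WT. The groups were 0.23 apart, and CH homozygote 4 was the lowest array. Its combined difference of -0.81 ± 0.17 (SE, adjusted p = 0.316) did not pass. H275R heterozygotes, at 7.44 to 7.69, also lay below WT, and CH heterozygotes, at 8.08 and 7.86, overlapped with it. The 9 measured megakaryocyte and platelet genes had 0 kept members (0.539% of all probe sets were kept) and a median difference of -0.12.

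*Xk*, a red cell membrane protein that carries the Kell blood group protein, was lower and passed as well, on the arrays that had selected it. It read 7.96, 8.01 and 7.74 in H275R homozygotes and 7.95, 8.30, 8.22 and 8.32 in CH homozygotes, against 8.58, 8.49, 8.79 and 8.83 in WT. The combined difference was -0.62 ± 0.09 (SE, adjusted p = 0.052), -0.77 in H275R and -0.47 in CH homozygotes. H275R heterozygotes lay between, at 8.20 to 8.36, and CH heterozygotes were at 8.32 and 8.65. The call passed with 8 of 15 arrays left out in turn and with 16 of 27 alternatives in all.

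*Xk* was the only kept gene among 18 measured erythroid genes. Of the 18, 17 were below 0 in the combined difference, with a median of -0.38, beside a median of -0.01 over all probe sets. The alleles were unlike on this list. The median was -0.70 in H275R and -0.09 in CH homozygotes, and 1 of 18 passed. *Kel*, which encodes the partner of XK, had -1.23 in H275R and -0.40 in CH homozygotes (adjusted p of the combined difference = 0.321) with a gap of -0.14, a negative gap being an overlap with WT. *Klf1*, the erythroid factor that activates *Klf3* in mouse red cells, had -0.66 and 0.20. The mean over the list was 8.56, 8.27 and 8.17 in H275R homozygotes and 8.38, 9.25, 8.76 and 9.23 in CH homozygotes, against 8.87, 8.74, 9.14 and 9.25 in WT. In whole embryos, fewer red cells and less RNA per red cell cannot be told apart. The part of red cell content in the *Xk* difference was not tested.

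The other lower genes had small differences, and none of them passed. After *Hsd3b6*, *Grap2* and *Xk*, the leading ones with a symbol were *Mir1948* (-0.71), *Vmn2r33* (-0.65), *Ftl1-ps2* (-0.62), *Zfp97* (-0.56), *Klk1b8* (-0.48), *H2ac15* (-0.41), *Ypel4* (-0.37), *Vmn2r60* (-0.34), *Gm6625* (-0.34), *A630089N07Rik* (-0.32), *Mylk3* (-0.31) and *A230098N10Rik* (-0.31). *Klk1b8* was dim, at percentile 8.3 of the level of all probe sets. *Mylk3* encodes the myosin light chain kinase of the heart. It read 7.0, 6.91 and 6.54 in H275R and 6.85, 7.03, 6.88 and 7.01 in CH homozygotes, against 7.05, 7.12, 7.30 and 7.28 in WT, with a gap of 0.03. None of the 18 cardiac muscle genes, 16 cardiac transcription factors or 21 valve genes on the lists was kept, and their median differences were 0.06, 0.00 and 0.03. With 0.539% of all probe sets kept, a count of 0 on lists of this size says little about these genes. *H2ac15*, a replication-dependent histone gene, read 8.62, 8.58 and 8.64 in H275R and 8.56, 8.59, 8.52 and 7.98 in CH homozygotes, against 8.81, 8.84, 9.19 and 8.84 in WT. *Vmn2r33* and *Vmn2r60* are vomeronasal receptors. Receptors of the nose made up 8 kept probe sets, 6.02% of those with 1 symbol, beside 5.97% in the whole table.

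Many of the lower probe sets named no gene. Of the 120, 60 (50.0%) were not listed in the annotation, 56 had 1 symbol and 4 had several, whereas 11 of the 91 higher ones (12.1%) and 35.3% of all probe sets were not listed. Of these 60, 27 stood in the opening run of 5333 probe set numbers that holds no listed gene and makes up 13.6% of the table, as did 3 of the 91 higher ones. The 2 unlisted probe sets with the smallest adjusted p, 17462661 and 17210095, differed by -0.57 and -1.28. The first read 4.28, 4.46 and 4.30 in H275R and 4.42, 4.21, 4.22 and 4.30 in CH homozygotes, against 4.96, 4.89, 4.81 and 4.87 in WT, and H275R heterozygotes, at 4.19 to 4.43, were as low as homozygotes. The second read 5.10, 5.55 and 5.24 in H275R and 4.17, 4.05, 3.86 and 4.54 in CH homozygotes, against 6.22, 5.92, 5.57 and 6.33 in WT. What these probe sets measure is not given in the sources used here. The lower probe sets were also dimmer, with 38.3% above the median level of the table, against 61 of the 91 higher ones.

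**Figure D3:**
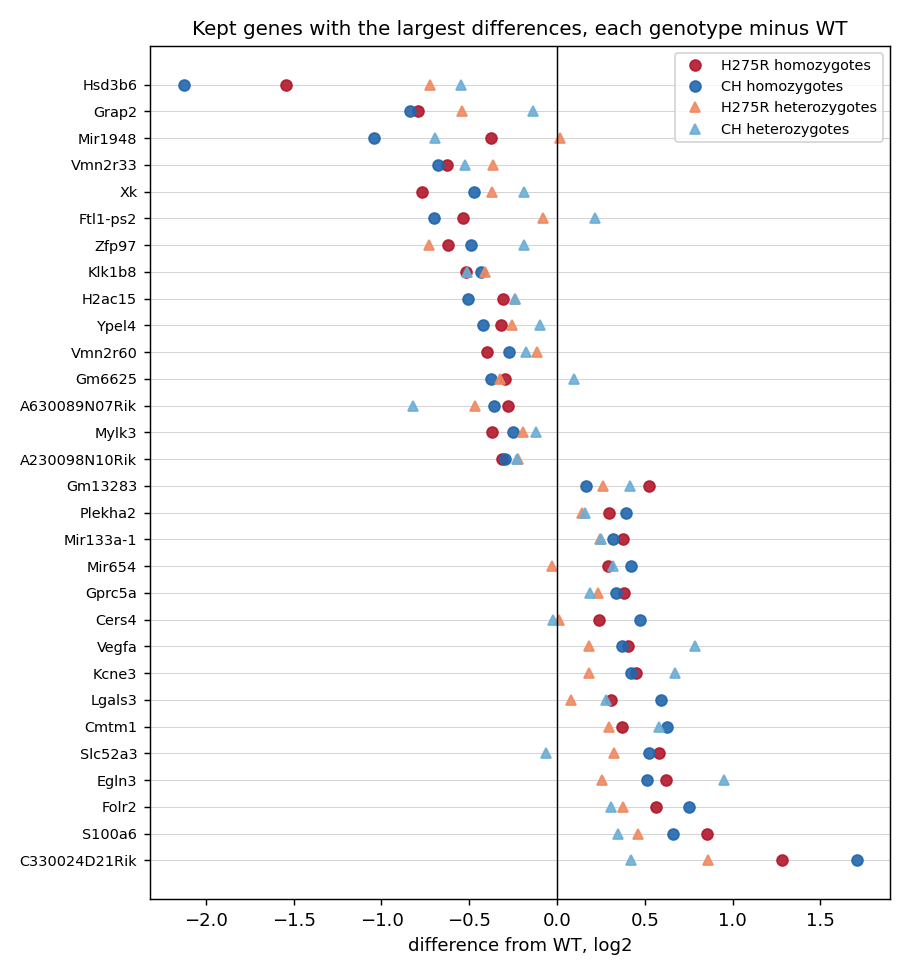
Difference from WT (log2) of the 15 lower and 15 higher kept genes with the largest combined difference, for H275R homozygotes, CH homozygotes, H275R heterozygotes and CH heterozygotes (circles for homozygotes, triangles for heterozygotes). *Hsd3b6* reaches -1.54 and -2.13 and *C330024D21Rik* 1.28 and 1.71 in the homozygotes, while most other genes lie within 1 log2 unit of WT.

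The higher genes were led by *C330024D21Rik*, a gene of chromosome 5, which also carries *Klf3*. It read 6.12, 6.50 and 5.85 in H275R and 6.92, 6.63, 7.26 and 5.52 in CH homozygotes, against 4.72, 5.22, 4.60 and 4.95 in WT. H275R heterozygotes were at 5.53, 6.6, 5.46 and 5.35, all above WT, and CH heterozygotes at 4.95 and 5.64. The combined difference of 1.5 ± 0.30 (SE, adjusted p = 0.303), or 2.82 times WT, did not pass. It passed without CH homozygote 4, the lowest of its group (adjusted p = 0.0242). Between *Klf3* and this gene the annotation lists 59 genes, 26 of them protein coding. The other kept genes of chromosome 5 lay farther off, with 108 genes between *Klf3* and *Fryl* (-0.21), 372 to *Cdkl2* (0.27) and 445 to *A230098N10Rik*. Of 132 kept probe sets with a known chromosome, 4 (3.03%) were on chromosome 5, beside 5.68% of the table. None of the 17 measured genes that flank *Klf3* was kept, where 0.539% of all probe sets were.

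*Lgals3* encodes galectin-3, a lectin whose gene KLF3 is known to repress. It was kept as higher, with 7.29, 7.44 and 7.37 in H275R and 7.29, 7.82, 7.68 and 7.80 in CH homozygotes, against 7.24, 6.86, 7.19 and 6.95 in WT. The gap was 0.04, and the combined difference of 0.45 ± 0.11 (SE, adjusted p = 0.498) did not pass. H275R heterozygotes, at 6.94 to 7.30, overlapped with WT. It was the only kept gene of the 5 named by the study as KLF3 targets. The study cites earlier work for *Lgals3* and also measured it by quantitative PCR in H275R embryos at E12.5. It reports a significant increase in whole homozygotes, and in the livers of homozygotes and heterozygotes. It names *Crip1* and *Pqlc3* as other known targets and reports them as unaffected there. Like the other lists here, this one was drawn up with earlier results of these data known. All 5 were above 0 in the combined difference, with a median of 0.45, but *Crip1* and *Pqlc3* had 0.01 and -0.09 in H275R homozygotes beside 0.89 and 1.04 in CH homozygotes, and 0 of 5 passed.

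*Folr2*, a folate receptor of macrophages, read 7.57, 7.54 and 7.71 in H275R and 7.30, 8.35, 7.45 and 8.09 in CH homozygotes, against 7.26, 6.83, 7.07 and 7.03 in WT, a combined difference of 0.66 ± 0.16 (SE, adjusted p = 0.528). CH homozygotes 2 and 4 were the highest. The mean of 12 macrophage genes was likewise highest in these, at 7.95 and 7.94, with 7.41 and 7.46 in CH homozygotes 1 and 3 and 7.66, 7.46 and 7.58 in H275R homozygotes, against 7.63, 7.5, 7.62 and 7.47 in WT. None of the 12 was kept, where 0.539% of all probe sets were, and their median difference was 0.10. The part of macrophage content in *Folr2* and *Lgals3* was not tested.

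**Figure D4:**
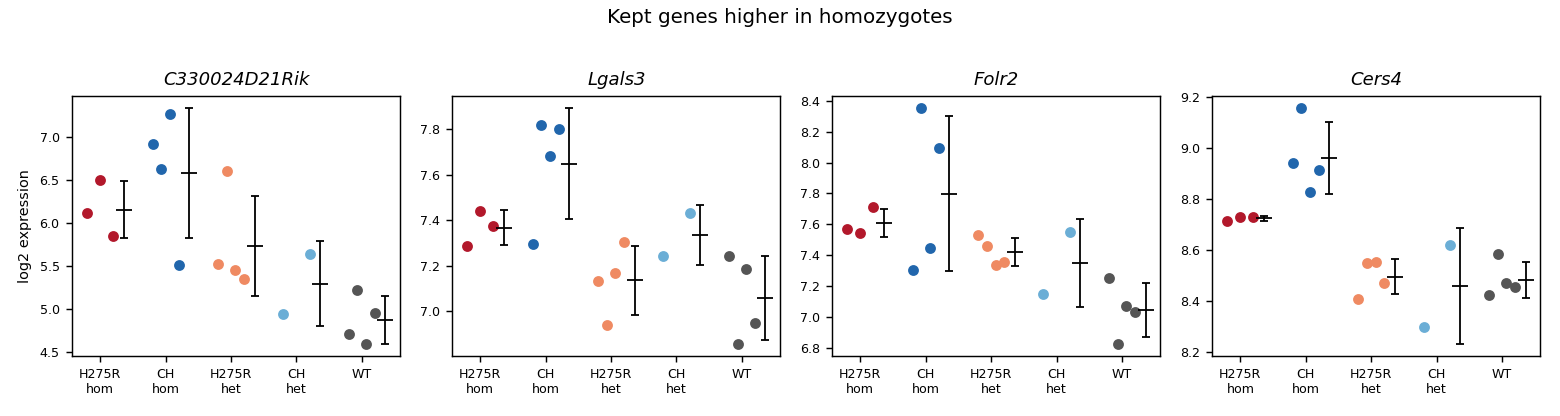
Log2 expression of *C330024D21Rik*, *Lgals3*, *Folr2* and *Cers4* on each array (points), with the mean and SD of each genotype (bars), from H275R homozygotes on the left to WT on the right. All 7 homozygotes lie above the 4 WT embryos by the rule, with CH homozygote 4 at 5.52 the lowest for *C330024D21Rik* and heterozygotes for *Cers4* at the level of WT.

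*Cers4*, a ceramide synthase, separated homozygotes from all other embryos. It read 8.71, 8.73 and 8.73 in H275R and 8.94, 9.16, 8.83 and 8.91 in CH homozygotes, against 8.42, 8.59, 8.47 and 8.46 in WT, and heterozygotes, at 8.30 to 8.62, lay at the level of WT. The combined difference was 0.36 ± 0.06 (SE, adjusted p = 0.186). *Sptlc2*, a subunit of the first enzyme of sphingolipid synthesis (0.09), and *Acer2*, a ceramidase (0.19), were also kept as higher and are named here after their values were seen. *S100a6*, a calcium-binding protein, had the second largest difference of the higher genes with 1 symbol (0.76 ± 0.18, SE, adjusted p = 0.461) at a gap of 0.004. It read 6.74, 6.92 and 7.22 in H275R and 6.40, 6.95, 6.32 and 7.37 in CH homozygotes, against 6.21, 6.18, 6.31 and 5.72 in WT. Its relative *S100a2* was kept as lower (-0.17).

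The other leading higher genes were *Slc52a3*, a riboflavin transporter (0.55), *Cmtm1* (0.50), *Kcne3*, a potassium channel subunit (0.43), *Gprc5a* (0.36), *Mir654* (0.35), *Mir133a-1* (0.35), *Plekha2* (0.35), *Gm13283* (0.34), *AU021092* (0.34), *Prelid2* (0.33) and *Tmem255a* (0.32). None passed. *Tmem255a* read at least 9.95 in every H275R homozygote and 9.82, 9.93, 9.96 and 10.20 in CH homozygotes, against 9.66, 9.64, 9.67 and 9.65 in WT, so that WT varied little. *Plp2*, a membrane protein of the secretory pathway, was kept by 2 probe sets, which differed by 0.27 and 0.26. No other gene had more than 1 kept probe set. Of the 132 kept genes, 18 have several probe sets, and in 7 the brightest probe set was not the kept one, *Gm13283* and *Arf6* among them. Besides the pair of *Plp2*, the 17 other probe sets of these genes all overlapped with WT, with differences from -0.14 to 0.16, and that of *Plekha2* differed by -0.03. 1 endothelial gene of 18, *Icam2* (0.24), and 1 skeletal muscle gene of 14, *Myf6* (0.23), were kept, with gaps of 0.01 each, and 17 of the 18 endothelial genes were above 0 with a median of 0.09.

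Genes of the oxygen response supplied 5 of the kept higher genes, more than any other list used. When oxygen falls, hypoxia-inducible factors raise glycolytic enzymes, the vessel growth factor VEGFA and prolyl hydroxylases. Of 16 measured genes on the hypoxia list, 5 were kept as higher (31.3%, against 0.233% of all probe sets). These 5 were all above the median level, while the base holds dim and unlisted probe sets too. The lists were also chosen with earlier results of these data known, so these percentages are a description and enrichment was not tested. Of the 16, 14 were above 0, with a median difference of 0.23, 0.17 in H275R and 0.30 in CH homozygotes. The median over all probe sets was -0.01. 1 of the 16, *Egln3*, passed. The same 5 were counted after quantile normalization and after median centring, and 1 when a gap of at least 0.1 was asked for.

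*Egln3*, the prolyl hydroxylase PHD3, read 9.17, 9.31 and 9.19 in H275R and 9.17, 9.28, 8.93 and 9.07 in CH homozygotes, against 8.74, 8.57, 8.74 and 8.35 in WT. The combined difference was 0.56 ± 0.09 (SE, adjusted p = 0.0971), and the call held with 2 of 15 arrays left out in turn and 6 of 27 alternatives in all. That call was made on the arrays that had selected *Egln3*. *Vegfa* read 9.52, 9.88 and 9.73 in H275R and 9.80, 9.63, 9.54 and 9.72 in CH homozygotes, against 9.21, 9.25, 9.44 and 9.31 in WT (0.39 ± 0.08, SE, adjusted p = 0.316). *Pdk1*, the kinase that keeps pyruvate out of mitochondria, read 8.57, 8.74 and 8.52 in H275R and 8.81, 8.84, 8.56 and 8.70 in CH homozygotes, against 8.32, 8.26, 8.42 and 8.38 in WT (0.32 ± 0.07, SE, adjusted p = 0.357). A second probe set of *Pdk1* differed by -0.03. The groups lay 0.19, 0.08 and 0.09 apart for these 3 genes.

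*P4ha1*, a collagen prolyl hydroxylase, and *Pgk1*, a glycolytic kinase, differed by 0.30 and 0.25 (both adjusted p = 0.461), with gaps of 0.02 and 0.06. *Ero1a*, an oxidase of the endoplasmic reticulum that also responds to low oxygen (0.17), and *Txnip*, an inhibitor of glucose uptake (0.29), were kept as well, are on none of the lists and were picked out after their values were seen. A second probe set of *Ero1a* differed by -0.06. *Ndrg1* (0.54), *Bnip3* (0.46) and *Ldha* (0.36) had larger differences than some kept members and overlapped with WT. *Car9* and *Mxi1* were below 0, at -0.09 and -0.04. Of 18 measured glycolysis genes *Pgk1* alone was kept, 14 were above 0 and the median was 0.15.

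The mean over the 16 hypoxia genes was 8.96, 9.18 and 9.04 in H275R homozygotes and 9.12, 9.17, 8.95 and 9.07 in CH homozygotes, against 8.79, 8.82, 8.90 and 8.80 in WT. H275R heterozygotes had 8.89, 9.01, 8.99 and 8.95, and CH heterozygotes 9.73 and 8.93. CH heterozygote 1 was the highest of all 17 arrays. It read 10.21 for *Egln3*, 10.67 for *Vegfa* and 9.61 for *Pdk1*, where CH heterozygote 2 read 8.90, 9.51 and 8.48. The list of immediate early and heat shock genes, which many kinds of stress raise, had means of 7.67, 7.95 and 7.73 in H275R and 7.42, 7.68, 7.52 and 7.52 in CH homozygotes, against 7.57, 7.61, 7.70 and 7.51 in WT. H275R homozygote 2 was the highest of its group on both lists. The part of stress of the embryo or the sample in the hypoxia genes was not tested.

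**Figure D5:**
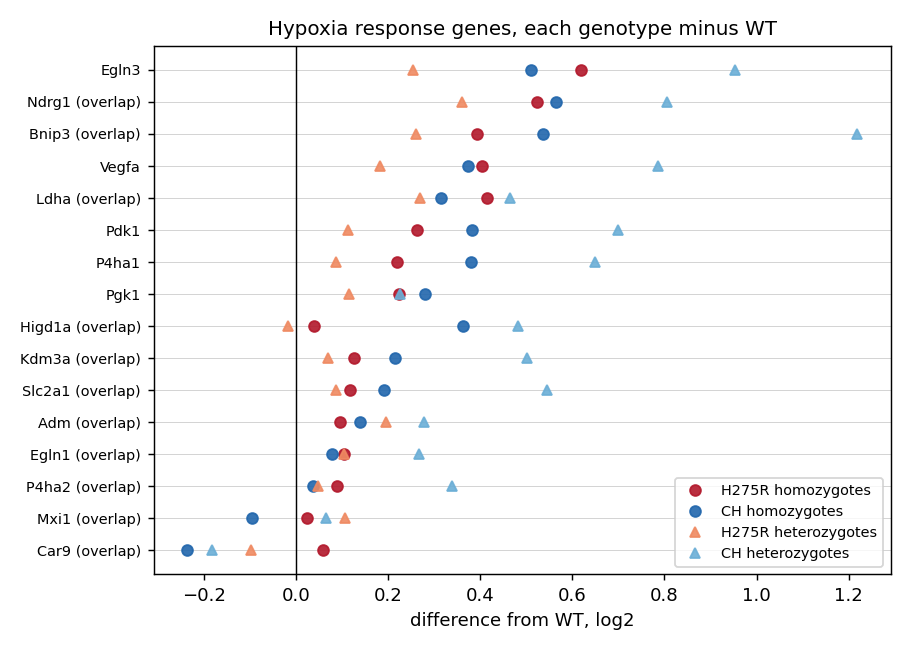
Difference from WT (log2) of the 16 measured genes of the hypoxia list, ordered by the combined difference of homozygotes, with circles for H275R and CH homozygotes and triangles for H275R and CH heterozygotes; genes marked as overlap were not kept. The 5 kept genes reach 0.22 to 0.62 in homozygotes, and CH heterozygotes, 1 of which was far above the other, lie farthest right for most genes.

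The remaining members differed little from WT. Of the 211, 106 had a combined difference under 0.25 in size, and 6 exceeded 1. Described by known role, and picked out after their values were seen, several of the higher ones act at the cell cortex. They were *Iqgap1*, a scaffold of actin and small GTPases (0.26), *Tagln2*, an actin-binding protein (0.23, with a second probe set at -0.01), *Pdlim1*, which binds alpha-actinin (0.21), *Msn*, the membrane linker moesin (0.14), and *Add3*, an adducin of the spectrin skeleton (0.11). Others were the desmosomal linker *Dsp* (0.28), the adhesion molecule *Ceacam1* (0.33) and the adhesion receptor *Adgrf5* (0.23). On the list of nonmuscle myosin and actin genes, which holds none of these, 0 of 14 were kept (0.539% of all probe sets were). On that list 13 were below 0, with a median of -0.03. Among the lower ones were *Kcnj1*, a potassium channel of the kidney (-0.26), *Clec4g*, a lectin of liver sinusoids (-0.24), *Fryl* (-0.21), *Ngb*, the globin of neurons (-0.16), *Chrna2*, an acetylcholine receptor subunit (-0.14), and *Cipc*, which inhibits the circadian factor CLOCK (-0.09). None of these genes passed. Of kept probe sets with a known gene type, 70.9% of the lower and 92.2% of the higher named a protein-coding gene, beside 86.4% of the table.

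6 kept probe sets named microRNA genes. *Mirlet7a-1* (0.25), *Mir1968* (0.27), *Mir654* and *Mir133a-1* were higher, and *Mir1948* and *Mir1964* (-0.15) were lower. The arrays read the gene or its precursor and not the mature arm. The mature arms are shown for the 4 with printed sequence, with the seed (bases 2 to 8) in capitals (RefSeq, GRCm38.p6), since the seed sets which messages an arm can pair with.
mmu-miR-1964-5p: aGCUGGAGcacaaaagccggug
mmu-miR-1964-3p: cCGACUUCugggcuccggcuuu
mmu-miR-1968-3p: aCCACCUCugcagcuguuaag
mmu-miR-1968-5p: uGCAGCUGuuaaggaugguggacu
mmu-miR-654-5p: uGGUAAGCugcagaacaugugu
mmu-miR-654-3p: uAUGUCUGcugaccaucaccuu
mmu-let-7a-1-3p: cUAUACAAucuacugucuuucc
mmu-let-7a-5p: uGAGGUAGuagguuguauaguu
No seed was shared between them. *Mirlet7a-1*, a member of the let-7 family that rises as tissues differentiate, read 6.41, 6.50 and 6.32 in H275R and 6.63, 6.34, 6.36 and 6.43 in CH homozygotes, against 5.97, 6.19, 6.26 and 6.28 in WT. *Mir654* read 7.48, 7.52 and 7.52 in H275R and 7.42, 7.71, 7.5 and 7.91 in CH homozygotes, against 7.04, 7.24, 7.41 and 7.16 in WT. *Mir1948* had 5.46, 5.19 and 5.38 in H275R and 4.36, 4.80, 4.36 and 5.18 in CH homozygotes, against 5.48, 6.05, 5.64 and 5.69 in WT. None of the 6 passed in the combined comparison, and H275R heterozygotes lay at or beyond WT on *Mir1948*, *Mir1964*, *Mir654* and *Mirlet7a-1* by their means.

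The heterozygotes were not used by the rule, but they are compared with the same WT arrays, so their direction is given as a description. Of the 211, 186 had a mean in H275R heterozygotes on the same side of WT as in homozygotes, and 181 in CH heterozygotes. The rule picks probe sets on which WT is extreme, and the same share over all probe sets was not computed. The median was 52.0% of the homozygous difference of the same allele in H275R and 47.4% in CH heterozygotes. All 4 H275R heterozygotes lay outside the range of WT on the homozygous side on 59 of the 211 and on the opposite side on 1, where 2.81% of all probe sets had no overlap between these groups in either direction. With limma, 0 probe sets of the table passed between H275R heterozygotes and WT (1514 were under 0.05 before adjustment, and after it the methods' t-test also gave 0) and 2 between CH heterozygotes and WT. *Cers4*, *Lgals3* and *Ftl1-ps2* were among the genes on which H275R heterozygotes were near WT, with differences of 0.01, 0.08 and -0.08. *Klk1b8* (-0.41) was among those on which they were near homozygotes. On *Zfp97* their mean difference was -0.73, but they were scattered, at 4.47, 4.03, 5.83 and 5.13. These values ran from below all homozygotes (4.72 to 5.39) to above all WT embryos (5.45 to 5.71).

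The comparison of the alleles did not use the WT mean. The 211 were chosen, however, so that both alleles lay on the same side of WT, on the same homozygous arrays. How many of the 211 differ between alleles is thus partly set by the rule. CH and H275R homozygotes differed on 64 probe sets (0.164%) at an adjusted p under 0.1, and 4919 were under 0.05 before adjustment. Among the 211, 1 passed, the unlisted probe set 17210095, with a difference of -1.14 ± 0.21 (SE, adjusted p = 0.0766). This count is open to the arrays used. It was 18 to 547 over the whole table when single arrays were left out, and 547 without CH homozygote 1. A p that misses the threshold does not show that the alleles act alike. CH homozygotes minus H275R homozygotes gave 0.29 ± 0.11 for *Xk*, -0.11 ± 0.11 for *Egln3*, -0.03 ± 0.10 for *Vegfa*, 0.28 ± 0.13 for *Lgals3* and 0.43 ± 0.37 for *C330024D21Rik* (SE), with adjusted p-values from 0.291 to 0.931. The difference from WT was larger in CH homozygotes on 137 of the 211 and in H275R homozygotes on 74. The same share over all probe sets was not computed. Over the whole table, 3503 probe sets were under 0.05 before adjustment (limma) in CH homozygotes against WT and 1982 in H275R homozygotes against WT.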

How the data were processed

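The data are 17 Affymetrix 2.0 ST arrays of total RNA, each from a whole mouse embryo at E12.5. The values deposited by the authors are on a log2 scale and come from robust multiarray averaging (RMA), a procedure that subtracts background, gives all arrays 1 distribution and summarises the probes of a probe set as a single number. The submitters' processing notes name Partek and RMA. Whether the arrays were normalized in 1 run, and the genome build, are not stated in these sources. Columns were matched to samples by their names, and 0 columns stayed without a sample. RMA shrinks differences of dim probe sets, and the number of arrays limits the precision.

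Of 39137 probe sets, 23521 have 1 gene symbol in the platform annotation, 1820 have several and 13796 are not listed. No gene was named from a probe set with several symbols, and *Lilra6* has none of its own. Of those with 1 symbol, 23325 were matched to the GRCm38.p6 gene table, used for chromosomes and gene order. A probe set was kept where the 7 homozygous arrays did not overlap with the 4 WT arrays. With limma 3.58.1 in R 4.3.3 (lmFit, eBayes), 1 mean per genotype was fitted over the 15 arrays of 4 genotypes, or over all 17 for CH heterozygotes. The combined comparison is the mean of both homozygous groups minus WT. P-values were adjusted over all probe sets (Benjamini-Hochberg) and passed under 0.1, the rate the study used. The study ties no test to the arrays. Its general section names a t-test or rank sum test for 2 groups and analysis of variance for several, and the methods' t-test here is the first of these. The fit was tested on simulated data over 39137 probe sets, where the combined comparison recovered 64.2% of changes of 0.5 log2 units, 95.5% of those of 1 and 98.5% of those of 2. The simulated noise was independent between arrays, and both alleles were given the same change. The real arrays split within groups and the alleles differ, so these shares check the code and are not the recovery in the data.

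The members and the 29 gene lists were chosen with earlier results of these data known. Genes named are *Hsd3b6*, *Klf3*, the 15 lower and 15 higher kept genes with the largest combined difference, those with the 20 smallest adjusted p-values, kept members of lists, and those nearest the rule's limit. Further genes, such as *Sptlc2*, *S100a2*, *Txnip*, *Iqgap1* and *Clec4g*, were picked out after their values were seen. The 41 named probe sets checked below include neither these nor those nearest the limit. Alternatives were the replicate block, other samples in the fit, an intensity trend, robust empirical Bayes, array weights, stricter thresholds, filters on symbol and level, other scalings and each array left out.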

Additional observations from a re-analysis of the deposited data

Results flagged for a closer look

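Values are log2 expression. In groups of 4 embryos, 8 of 123 checks on 41 named probe sets had 1 embryo far from the other 3, and chance gives about 1 in 20. *H2ac15* was at 7.98 in CH homozygote 4, with the others at 8.52 to 8.59, and at 9.19 in WT 3, with the others at 8.81 to 8.84. *C330024D21Rik* was at 6.6 in H275R heterozygote 2, with the others at 5.35 to 5.53, a value within the range of the homozygotes. In the same embryo, *A630089N07Rik* was at 7.53, with the others at 9.06 to 9.28. *P4ha1* was at 9.62 in WT 1, below 9.74 to 9.77 in the other WT embryos. *Prelid2* was at 8.26 in CH homozygote 3, below 8.39 to 8.40. In WT 3, *Gprc5a* was at 6.64, above 6.51 to 6.52, and *Cmtm1* at 3.0, below 3.19 to 3.23.

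CH minus H275R homozygotes differed for *Klf3*, by -3.77 (limma adjusted p = 2.61e-08). This was the only one of the 41 named probe sets on which the alleles differed at an adjusted p under 0.1. Apart from *Klf3*, these were all kept by the rule, which asks both alleles to lie on the same side of WT. The count is thus partly set by the rule.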

How the results depend on the processing

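*Hsd3b6* passed under every setting tried but the methods' t-test (adjusted p from 0.000292 to 0.893), and no named difference turned its direction. *Xk* and *Egln3* were lost under 11 and 21 of 27 settings. The count of 9 for homozygotes against WT became 5 with the replicate block, 4 with only the groups compared, 17 with array weights, 4 at an adjusted p under 0.05, 1 with the methods' t-test, 3 with the homozygotes as 1 group, and 3 to 22 with single arrays left out. The count of 64 between alleles became 42 with the replicate block, 129 with an intensity trend, 15 with only the groups compared, 15 at an adjusted p under 0.05, 115 with only probe sets of 1 symbol, 344 with only those above the median level, 0 with the methods' t-test, and 18 to 547 with single arrays left out. For CH heterozygotes 2 became 7 with the replicate block and 1 to 36 with single arrays left out, and for H275R heterozygotes the count was 0 to 1. Same-numbered embryos did not deviate together in every pair, so the number was not taken as a pairing. Their correlation was 0.33 for H275R homozygote and heterozygote 3, and -0.14 for H275R and CH homozygotes 1. On the first principal component H275R embryos numbered 1 and 2 lay at -29.2 to -21.4, and those numbered 3 and 4 at -4.2 to -0.5. The source of this split by number was not tested. The replicate block removed the calls of *Xk* and *Egln3* (both adjusted p = 0.117).

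The 211 kept probe sets became 133 with only those of 1 symbol (56 lower), 107 above the median level (46 lower) and 28 with a gap of at least 0.1 (21 lower and 7 higher), and median centring gave 68 lower and 167 higher. Leaving out 1 array can only add members and gave 301 to 599, with 165 to 356 lower and 125 to 243 higher. The 5 hypoxia genes became 1 with a gap of at least 0.1 and 5 to 7 with single arrays left out. The cause of these changes was not tested.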
